A study of Homo sapiens with 16 samples.

Results

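This section describes 9 genes, mostly of the extracellular matrix, the cell surface and the secretome. Their read counts in polyA mRNA of HBE cells were higher after knockdown of FLII than in the control. They are FN1, MFAP5, CDH2, CDH11, IL11, LIPG, PLAU, IGFN1 and UPK1B. They were taken by symbol out of the 23709 genes in the files. The members were chosen by their high read counts in the HBE mRNA pair, so that pair is described here without a test, and the question put to the other libraries is which of them share the rise. The 9 were chosen under the heading of mesenchymal and secreted genes and are not a full class. IGFN1, known from skeletal muscle, and UPK1B, of the urothelial plaque, are not typical of that heading.

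The study covers 16 human libraries with 1 library per group. HBE, a lung epithelial line, was stably transduced with a lentiviral short hairpin RNA against FLII (knockdown) or carried the control named NC in the labels. H1299, a lung carcinoma line, was transfected with a pCMV-N-Flag-FLII plasmid (overexpression) or the empty pCMV-N-Flag plasmid (vector). Both lines were at passage 15 to 18 and grew in the same serum-containing medium, and FLII (flightless I) encodes a gelsolin-related protein that binds actin. The labels name no separate hairpins or clones, and no replicate. Each of the 4 conditions gave an mRNA, a cytosol, a nuclear and an RNC library, where RNC stands for RNA pelleted with ribosome-nascent chain complexes after cycloheximide. Whether the mRNA, cytosol and nuclear libraries of a condition came from the same culture is not given in the sources used here.

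Fibronectin, the product of FN1, is secreted as a dimer and assembled by integrins into fibrils around mesenchymal and wound-edge cells. A gain of fibronectin and of N-cadherin (CDH2) with a loss of E-cadherin is the textbook sign of an epithelial-mesenchymal transition, a programme that TGF-beta can start. IL11 and PLAU are secreted products of many stressed or migrating epithelial cells.

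Promoter sequences are shown for 2 of the genes, the one with the largest fold (FN1) and the one with the highest RPKM in HBE mRNA (IL11), to show which short motifs lie beside genes that were high together. They are the 250 bases upstream of the RefSeq start, written 5′ to 3′ on the gene's strand, from a GRCh38.p14 table. The reads were assigned on GRCh37 (hg19), so these positions are for the sequence alone. Capitals mark the GC box (GGGCGG, either strand) in FN1, at chr2:215436069-215436318 on the minus strand, and the AP-1 motif (TGANTCA, either strand) in IL11, at chr19:55370464-55370713 on the minus strand.
FN1: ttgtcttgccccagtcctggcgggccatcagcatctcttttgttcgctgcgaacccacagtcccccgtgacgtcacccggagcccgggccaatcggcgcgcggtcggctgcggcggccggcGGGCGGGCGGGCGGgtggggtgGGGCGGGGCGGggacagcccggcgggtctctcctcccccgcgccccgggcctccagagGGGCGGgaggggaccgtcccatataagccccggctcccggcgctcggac
IL11: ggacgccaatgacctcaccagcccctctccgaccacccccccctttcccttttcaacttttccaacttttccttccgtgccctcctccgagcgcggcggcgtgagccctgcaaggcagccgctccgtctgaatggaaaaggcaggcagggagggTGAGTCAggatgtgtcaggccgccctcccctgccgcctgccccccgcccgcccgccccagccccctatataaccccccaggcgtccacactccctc
The table held a promoter window for 7 of the 9 genes, and MFAP5 and CDH11 were not matched. FN1 held 6 matches of the GC box, some of which overlap each other, and IL11 held 1 of AP-1. In windows that also take in the first transcribed bases, AP-1 letters were present for 2 of the 7 genes (CDH2 and IL11) and in 7.71% of all 35116 windows. The GC box was present for 4 of 7 and in 45% of windows, the SMAD letters CAGAC for 5 of 7 and in 45.3%, the E-box CAGGTG for 3 of 7 and in 20.6%. The TEAD letters GGAATG were found for 1 of 7 (UPK1B; 14% of windows), TATAAA for 1 of 7 (CDH2; 11.5%) and the hypoxia letters ACGTG for 0 of 7 (21.4%). A gene was counted if any of its windows held the letters, and genes such as CDH2 and PLAU had more than 1 window. The shares of genes and of windows are therefore not like for like. A match is a run of letters and not evidence of binding, and no motif was shared by all 7.

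Reads assigned to genes totalled 5943676 to 8344359 in mRNA, 5914489 to 9259569 in cytosol, 6295282 to 8201848 in nuclear and 26711771 to 38514467 in RNC libraries. FLII checks the labels: it was lower in HBE knockdown than in NC by 2.58 in mRNA, 2.94 in cytosol and 2.98 in nuclear RNA on the log2 scale (log2 folds −2.58, −2.94 and −2.98). In H1299 it was higher in overexpression than in vector, with log2 folds of 2.14 in mRNA, 1.66 in cytosol and 1.86 in nuclear RNA. It went against the labels in RNC, with a log2 fold of 0.07 in the HBE pair and of −4.21 in the H1299 pair. Genes typical of a line were taken from the cytosol and nuclear libraries as those far higher in 1 line. The 145 genes typical of H1299 summed to 325 CPM (reads scaled to the library total) and the 85 typical of HBE to 46800 CPM in the RNC sample whose label says H1299 overexpression. Where the label says HBE knockdown, the RNC sums were 16800 and 1484 CPM. RNC values are therefore given by label only. All 12 airway and basal epithelial markers, such as CDH1, EPCAM, KRT5 and TP63, were at or above 1 CPM in each of the 6 HBE mRNA, cytosol and nuclear libraries. In H1299 vector mRNA 9 of the 12 were too, so this bar is a low one. In HBE mRNA TP63 had 1187 reads in NC and 626 in knockdown, and DSP 8429 and 5724. KRT17 went the other way, with 27445 and 32693. With 1 library per group, each fold below compares a pair of libraries rather than conditions, and the 95% interval beside it holds only the error of counting. Values are read counts and RPKM, that is reads scaled to transcript length and library total. A gene is called higher or lower where the fold after TMM scaling was at least 2, the interval excluded a fold of 1 and the pair held at least 20 reads.

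In HBE mRNA all 9 genes were called higher after knockdown. Since this contrast chose them, nothing is read from that count, which stands beside 255 genes called higher of 12635 tested (2.02%) and 370 called lower (2.93%). Scaled by total counts these were 376 higher and 273 lower. Ranked by the lower bound of the interval among those 255, FN1 was first and IGFN1 was at rank 2, then MFAP5 at 4, IL11 at 6, CDH2 at 7, UPK1B at 8, LIPG at 9 and CDH11 at 10. PLAU stood further back, at rank 108. In bulk libraries, more RNA per cell and more cells that hold the RNA cannot be told apart.

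**Figure D1:**
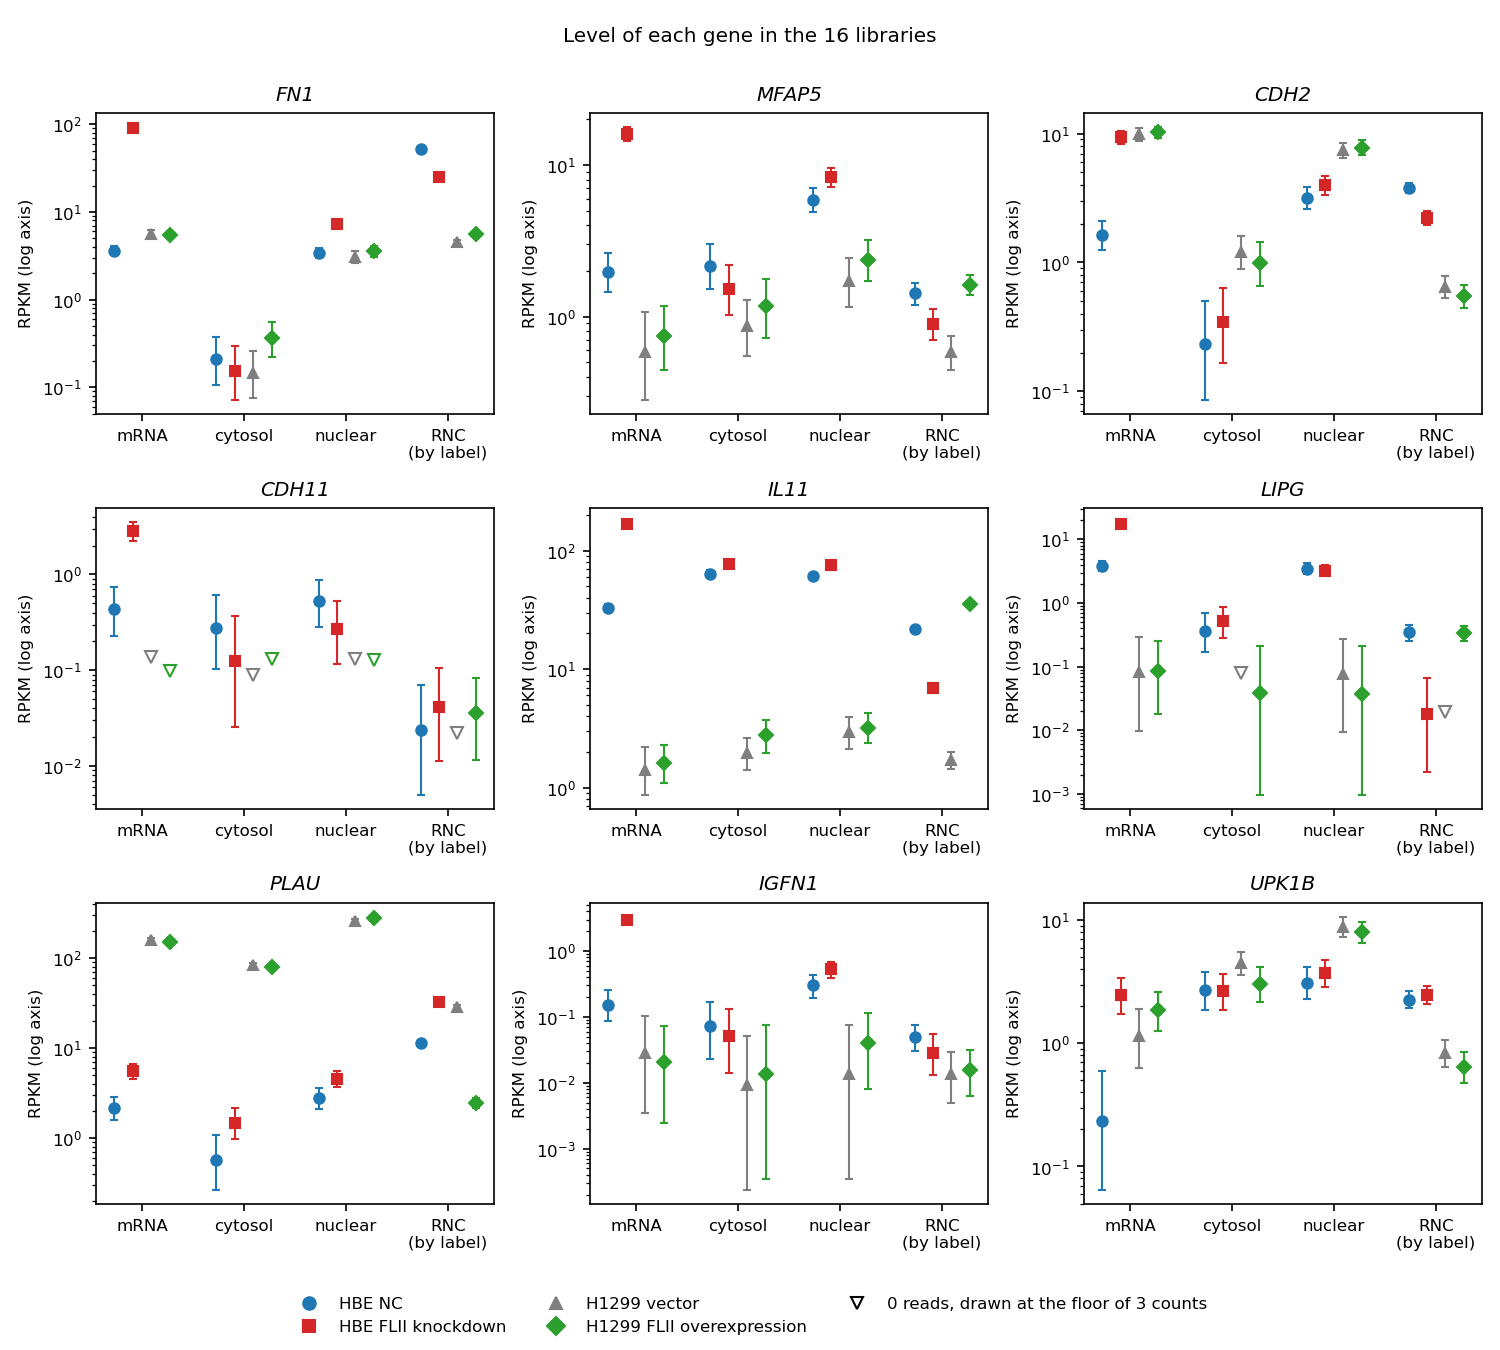
RPKM of the 9 genes (log axes) in mRNA, cytosol, nuclear and RNC libraries of HBE NC, HBE FLII knockdown, H1299 vector and H1299 FLII overexpression. Each point is 1 library, bars are exact Poisson 95% intervals of the count, and open triangles mark 0 reads at the floor of 3 counts. FN1 stood at 91.6 RPKM in HBE knockdown mRNA, against 3.61 in NC mRNA and 0.155 in knockdown cytosol.

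FN1 had the largest fold of the set, and it was high in mRNA far beyond its level in the fractions. It had 263 reads (3.61 RPKM) in NC mRNA and 6050 reads (91.6 RPKM) in knockdown mRNA, a log2 fold of 4.53 (interval 4.36 to 4.72). The nuclear libraries held 222 reads (3.44 RPKM) in NC and 521 (7.22 RPKM) in knockdown. In cytosol there were 11 reads in NC and 9 in knockdown (0.211 and 0.155 RPKM). The 2 NC libraries for mRNA and nuclear RNA were thus close in RPKM, whereas in knockdown the mRNA library stood far above the nuclear one. FN1 was called higher in the nuclear pair (log2 fold 1.04, 0.81 to 1.27) and not called in cytosol (−0.44, −1.91 to 0.95), where the few reads leave a wide interval.

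MFAP5 encodes a glycoprotein of the fibrillin microfibrils. Its mRNA reads were 47 in NC and 348 in knockdown (1.97 and 16.1 RPKM; log2 fold 2.88, 2.46 to 3.37). Nuclear reads were 125 and 196 (5.91 and 8.29 RPKM; 0.45, 0.12 to 0.79), and cytosol reads 37 and 29 (2.17 and 1.53 RPKM; −0.51, −1.28 to 0.22). The nuclear interval lay above 0 but the fold was short of 2, and the cytosol interval held 0. In RPKM, nuclear RNA was the highest of the 3 kinds in NC and mRNA the highest in knockdown. After TMM scaling MFAP5 in NC was lower in mRNA than in cytosol (−0.92, −1.58 to −0.27), short of the rule.

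The cadherins are calcium-dependent adhesion proteins, and N-cadherin (CDH2) and OB-cadherin (CDH11) are typical of mesenchymal and osteoblastic cells. CDH2 had 59 reads in NC mRNA and 306 in knockdown mRNA (1.63 and 9.33 RPKM; log2 fold 2.37, 1.98 to 2.81). In nuclear RNA it had 102 and 142 reads (3.18 and 3.96 RPKM; 0.28, −0.09 to 0.67), and in cytosol 6 and 10 reads, too few for a call. CDH2 in NC was thus lower in mRNA than in nuclear RNA, and in knockdown higher. CDH11 had 13 and 78 reads in mRNA (0.431 and 2.85 RPKM; 2.55, 1.74 to 3.57). Its nuclear reads were 14 and 8 (−0.96, −2.46 to 0.35) and its cytosol reads 6 and 3, so the knockdown library was the lower one in both fractions, within counting error.

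IL11, a cytokine of the interleukin-6 family that signals through gp130, had the highest RPKM of the 9 in each HBE mRNA, cytosol and nuclear library. It had 646 reads in NC mRNA and 3007 in knockdown mRNA (32.8 and 168 RPKM; log2 fold 2.23, 2.11 to 2.35). Cytosol reads were 894 and 1202 (63.6 and 76.8 RPKM; 0.26, 0.13 to 0.38) and nuclear reads 1070 and 1481 (61.4 and 75.9 RPKM; 0.28, 0.16 to 0.39). Both fraction intervals lay above 0 with folds short of 2. The NC mRNA library was the lowest of the 6 and the knockdown mRNA library the highest, with the 4 fraction libraries between them.

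PLAU encodes urokinase, the protease that turns plasminogen into plasmin at the cell surface. Reads in mRNA were 47 in NC and 111 in knockdown (2.13 and 5.55 RPKM; log2 fold 1.24, 0.75 to 1.77), in cytosol 9 and 26 (0.572 and 1.48 RPKM; 1.32, 0.22 to 2.64) and in nuclear RNA 54 and 98 (2.77 and 4.49 RPKM; 0.66, 0.17 to 1.17). PLAU was called higher in cytosol and not in nuclear RNA, and all 3 intervals lay above 0. It was the gene with the smallest mRNA fold of the set.

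LIPG encodes endothelial lipase, a secreted phospholipase that acts on high-density lipoprotein. It had 132 and 543 reads in mRNA (3.85 and 17.5 RPKM; log2 fold 2.05, 1.77 to 2.34), 106 and 110 in nuclear RNA (3.49 and 3.24 RPKM; −0.14, −0.54 to 0.26) and 9 and 14 in cytosol (0.45, −0.84 to 1.86). The nuclear libraries were thus level and close to NC mRNA, and the knockdown mRNA library stood apart.

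IGFN1 encodes a protein with immunoglobulin and fibronectin type III domains known from skeletal muscle. Its mRNA reads were 15 in NC and 262 in knockdown (0.153 and 2.95 RPKM; log2 fold 4.09, 3.39 to 4.99). Nuclear reads were 26 and 51 (0.3 and 0.527 RPKM; 0.77, 0.07 to 1.52), and cytosol held 5 and 4. The knockdown mRNA library was again the one above the rest.

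UPK1B, a tetraspanin of the urothelial plaque, showed another layout. It had 4 reads in NC mRNA and 38 in knockdown mRNA (0.235 and 2.46 RPKM; log2 fold 3.11, 1.78 to 5.21). The cytosol libraries had 2.71 RPKM in NC and 2.66 in knockdown, and the nuclear libraries 3.11 and 3.73, with folds of −0.04 (−0.77 to 0.68) and 0.23 (−0.34 to 0.81). Here the NC mRNA library, with its 4 reads, was the one that lay apart, while knockdown mRNA was near the fractions in RPKM. After TMM scaling knockdown mRNA was below knockdown cytosol (−0.97, −1.68 to −0.29), short of the rule.

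**Figure D2:**
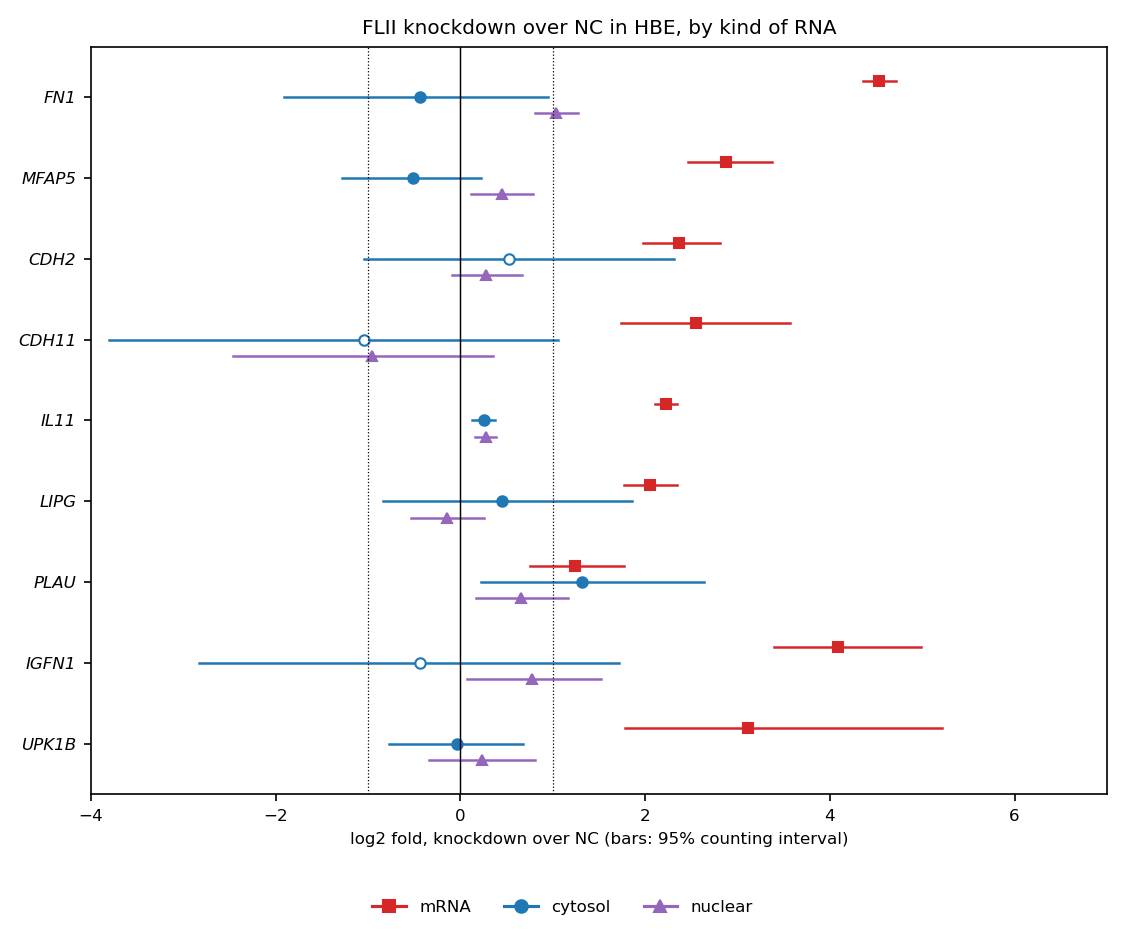
Log2 fold of FLII knockdown over NC in HBE mRNA, cytosol and nuclear RNA for the 9 genes. Bars are 95% counting intervals, open symbols mark pairs with under 20 reads, and dotted lines mark a fold of 2. In mRNA the folds run from 1.24 (PLAU) to 4.53 (FN1), and outside mRNA only FN1 in nuclear RNA and PLAU in cytosol passed the rule.

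Across the set, 1 of 9 genes was called higher in cytosol (PLAU) and 1 of 9 in nuclear RNA (FN1), beside 0.625% and 0.55% of all genes tested in these pairs; none was called lower (0.625% and 0.323%). In cytosol 6 of the 9 had enough reads, with a median log2 fold of 0.11 against 0.00 over all genes. In nuclear RNA all 9 had enough reads, with a median of 0.28 against 0.01, and 5 intervals lay above 0 (FN1, MFAP5, IL11, PLAU and IGFN1). The share of all genes with such an interval was not computed. The 0.55% is for the stricter rule, so nothing is read from the 5. The difference of the folds between kinds of RNA was then set against its own counting interval. The mRNA fold was above the nuclear fold beyond the interval for 8 of 9 genes (13.6% of all 11873 genes tested), with differences from 1.95 (1.79 to 2.12) for IL11 to 3.50 (3.21 to 3.78) for FN1 and 3.50 (2.03 to 4.98) for CDH11. It was above the cytosol fold for 5 of the 6 genes with enough reads (11.4% of 10606), from 1.60 (0.39 to 2.81) for LIPG to 4.97 (3.72 to 6.22) for FN1. Since the mRNA fold chose the genes, these differences are descriptions. PLAU was the exception in both, with a difference of −0.07 (−1.25 to 1.10) from cytosol and 0.58 (−0.10 to 1.26) from nuclear RNA, intervals that still allow folds a good deal apart. The nuclear fold exceeded the cytosol fold beyond the interval for 2 of 6 genes (3.62% of 10776), FN1 (1.47, 0.21 to 2.73) and MFAP5 (0.97, 0.20 to 1.74).

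The other 246 genes called higher in HBE mRNA were read in the fractions in the same way. In cytosol 156 of them had enough reads and 5 were called higher (3.21% of the 156, beside 0.625% of all genes). In nuclear RNA 205 had enough reads and 10 were called higher (4.88% of the 205, beside 0.55%). Seen from the other side, 6 of the 68 genes called higher in cytosol (8.82%) and 11 of the 68 in nuclear RNA (16.2%) were called higher in mRNA, the members included, beside 2.02% of all genes. The median log2 fold was 0.20 over the 156 other genes in cytosol and 0.21 over the 205 in nuclear RNA. For the set it was 0.11 over the 6 genes with enough reads in cytosol and 0.28 over all 9 in nuclear RNA. Both groups were taken for their mRNA fold in the same pair of libraries, so smaller folds elsewhere are partly set by that choice and are given as a description.

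**Figure D3:**
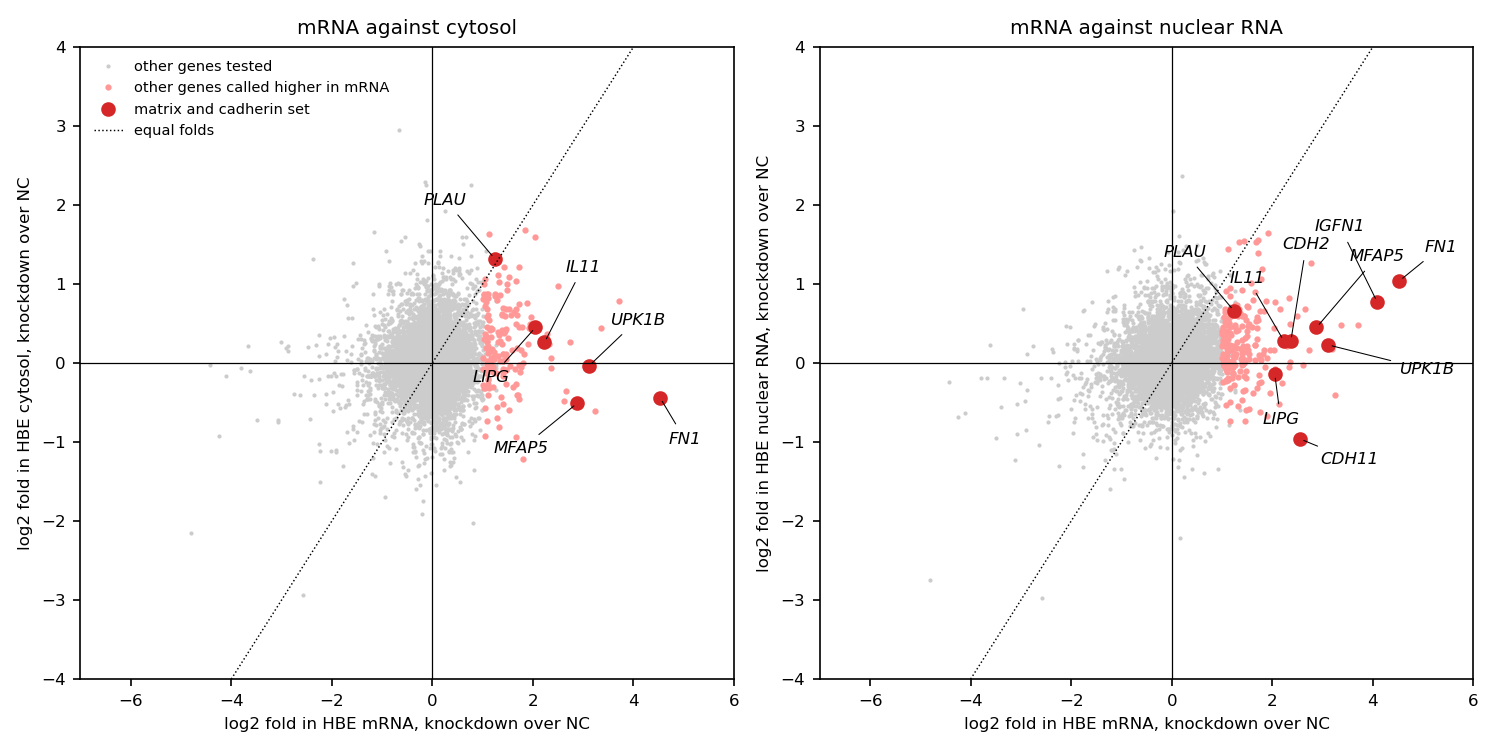
Log2 folds of knockdown over NC in HBE mRNA (x axis) against those in cytosol (left, y axis) and nuclear RNA (right, y axis), 1 point per gene with at least 20 reads in both pairs. Most of the set and of the other genes called higher in mRNA lie between −1 and 1 on the y axes, with PLAU close to the line of equal folds in cytosol.

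Beside these results stand the values of other cells. The 145 genes typical of H1299 summed to 85.7 CPM in NC mRNA and 66.2 CPM in knockdown mRNA, against 22140 CPM in H1299 vector mRNA. VIM, the main filament gene of H1299, had 49 reads in NC mRNA and 23 in knockdown mRNA. In cytosol both went the other way, with 91.8 and 122 CPM of the H1299-typical genes and 18 and 41 reads of VIM (1.00, 0.19 to 1.90, not called), and in nuclear RNA the sums were 80.0 and 74.9 CPM and VIM had 15 and 12 reads. The 12 fibroblast markers summed to 76.2 CPM in NC and 130 CPM in knockdown mRNA, to 39.4 and 53.2 CPM in nuclear RNA and to 15.2 and 15.3 CPM in cytosol. In the mRNA libraries 4 (NC) and 6 (knockdown) of the 12 were at 0 reads; LUM, THY1 and COL3A1 were at 0 in both, DCN had 1 and 0 and POSTN 1 and 0. COL1A1 (291 and 366 reads), COL5A1 (217 and 391) and FAP (113 and 215) held nearly all reads of the list. None of the list was called, but with total counts FAP was (log2 fold 1.06). The part of H1299 RNA or of cells with these markers in the folds of the 9 genes was not tested. The HBE-typical genes summed to 22450 CPM in NC and 23260 CPM in knockdown mRNA.

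Genes around the members in their pathways were read as lists in HBE mRNA. The lists were not pooled, so whether their calls together were few or many beside all genes was not tested. Lists were read without the members, and their counts stand beside 2.02% of all genes called higher and 2.93% lower and their medians beside 0.01, so 1 call in a list of this size is no result about the list. Of 14 fibronectin receptors and matrix partners, 11 had enough reads, 1 was higher and 1 lower in HBE mRNA, with a median of 0.24. TGM2, a transglutaminase that cross-links fibronectin, rose (37509 against 17671 reads; 1.10, 1.07 to 1.12), and ITGA5, the alpha chain of the classical fibronectin receptor, fell (285 against 917 reads; −1.67, −1.87 to −1.48). In nuclear RNA TGM2 was at 0.18 and ITGA5 at 0.36, and in cytosol at 0.22 and 0.57, none of them called.

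Of 16 microfibril and elastic fibre genes (12 with enough reads, median −0.07, or 0.06 with total counts), fibrillin-1 rose and the collagen cross-linker LOX fell in HBE mRNA. FBN1 had 146 against 59 reads (1.31, 0.87 to 1.78), and LOX 10 against 111 (−3.40, −4.56 to −2.53). Neither was called in nuclear RNA (0.67 and −0.56).

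Of 17 other classical cadherins and catenins, 9 had enough reads, with a median of 0.13, and 1 was higher. This was CDH5, the cadherin of endothelial junctions (599 against 186 reads; 1.69, 1.46 to 1.94), at 0.44 in nuclear RNA and −0.41 in cytosol. E-cadherin (CDH1) had 1718 reads in knockdown and 1991 in NC mRNA and was not called, and no cadherin or catenin of the list was called lower in HBE mRNA. Of 14 other mesenchymal genes 8 had enough reads, 0 were higher and 2 lower, with a median of 0.07. With total counts 1 was lower, since VIM then had −0.94. The 2 were VIM (−1.07, −1.86 to −0.34) and the smooth muscle actin ACTA2 (46 against 107 reads; −1.20, −1.74 to −0.70).

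In the plasminogen activator system 0 of 9 genes were higher and 3 lower in HBE mRNA, with a median of −0.53 over 8 genes. These were the tissue activator PLAT (220 against 465 reads; −1.07, −1.31 to −0.84), the clearance receptor LRP1 (2261 against 5097; −1.16, −1.23 to −1.09) and the plasminogen receptor PLGRKT (11 against 24; −1.08, −2.29 to −0.03). With total counts LRP1 alone was called, PLAT having −0.94 and PLGRKT −0.96. In nuclear RNA LRP1 was at 0.54 and PLAT at 0.29. Thus in mRNA the urokinase gene and the tissue activator gene differed in sign between the same libraries.

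The IL-6 family list had 1 of 14 genes higher and 0 lower in HBE mRNA (13 with enough reads, median −0.21). The gene was IL6 itself (44 against 21 reads; 1.06, 0.30 to 1.90), with 0.64 (0.20 to 1.09) in nuclear RNA and −0.12 in cytosol. With total counts CLCF1 was called as well (1.07). Of 22 TGF-beta pathway and target genes, 20 had enough reads, 2 were higher and 1 lower, with a median of 0.17. TAGLN, which encodes an actin-binding protein of smooth muscle, had 98 against 10 reads (3.24, 2.36 to 4.41), and PMEPA1, an inhibitor of TGF-beta signalling, 3027 against 919 (1.73, 1.62 to 1.84). LTBP4, which binds latent TGF-beta, was lower (144 against 321; −1.14, −1.44 to −0.86). In nuclear RNA TAGLN was at −0.40 and PMEPA1 at −0.25, and in cytosol at −0.61 and −0.02.

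Around LIPG, 1 of 11 lipase genes found was lower in HBE mRNA and none higher (7 with enough reads, median −0.38). It was the lipase inhibitor ANGPTL4 (14 against 252 reads; −4.11, −5.05 to −3.39). No uroplakin or tetraspanin of 14 was called (11 with enough reads, median −0.27). Calls of list genes in the fractions stand beside 0.625% (cytosol) and 0.55% (nuclear RNA) of all genes called higher, so single calls are no result about a list. In cytosol and nuclear RNA these 9 lists held 2 and 1 called genes: TNC (18 against 5 reads; 1.59, 0.19 to 3.46) and TGFBR3 (17 against 5; 1.51, 0.10 to 3.39) in cytosol, and the integrin chain ITGB6 (32 against 7; 1.93, 0.79 to 3.42) in nuclear RNA.

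How the transcripts were spread between nucleus and cytosol also set the genes apart from each other. In HBE NC 5 of 9 were called higher in nuclear than in cytosolic RNA (22.8% of all genes), and in knockdown 6 of 9 (23.9%). Log2 folds of nuclear over cytosol in NC and knockdown were 3.44 (2.62 to 4.51) and 4.92 (4.04 to 6.12) for FN1, 3.16 and 2.91 for CDH2, 2.66 and 2.07 for LIPG, 1.69 and 1.03 for PLAU, 1.46 and 2.69 for IGFN1 and 0.90 and 1.87 for MFAP5. IL11 was nearer to even, with −0.59 (−0.72 to −0.46) and −0.57 (−0.68 to −0.46), and UPK1B had −0.33 and −0.07. None was called lower (17% and 17.6% of all genes). How the nuclear RNA was separated is not given in the sources used here, so RNA on membranes that stay with nuclei cannot be told apart from RNA within them. FN1 and CDH2 were also called higher in nuclear RNA in both H1299 conditions, with 4.00 and 2.27 in vector and 2.73 and 2.42 in overexpression, as was PLAU (1.31 and 1.28). In H1299 3 of 9 were called in each condition, beside 14.8% and 17.9% of all genes.

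**Figure D4:**
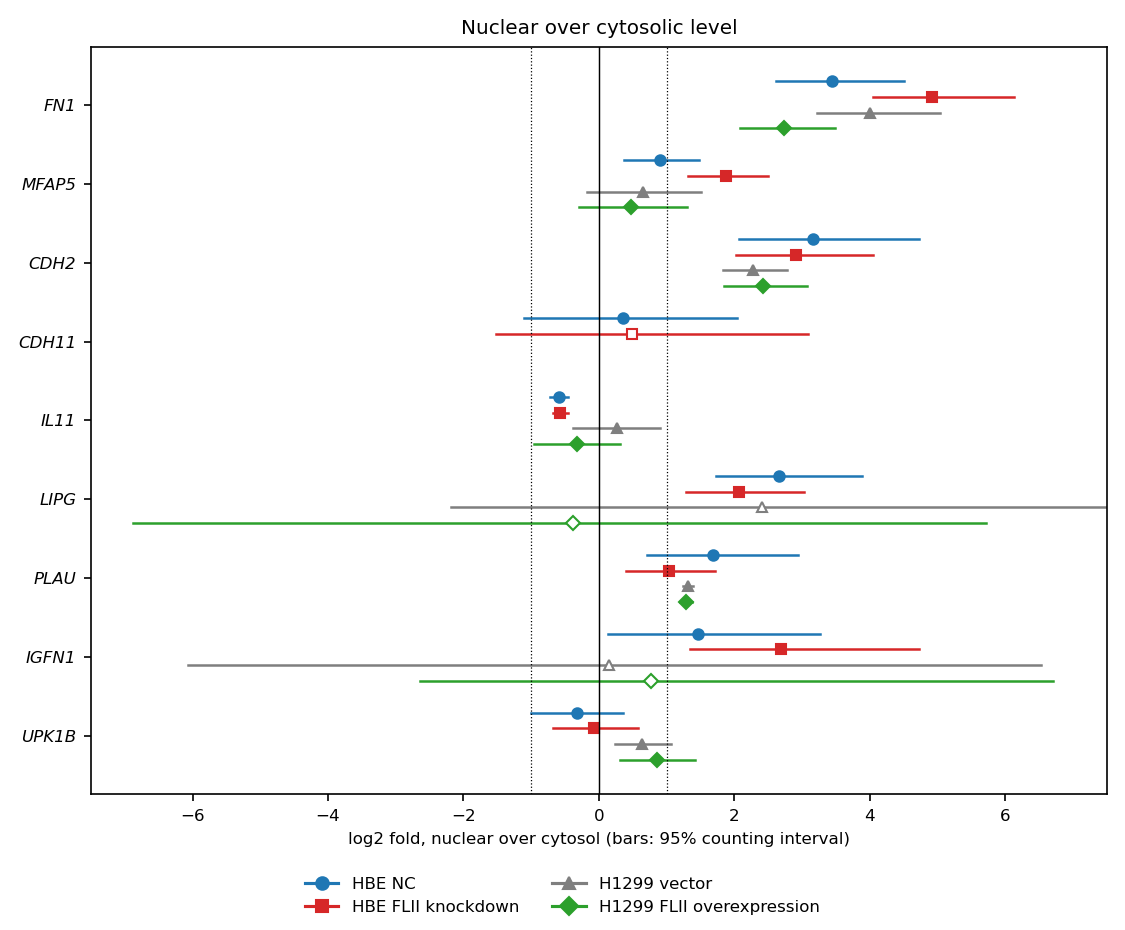
Log2 fold of nuclear over cytosolic level for each gene in the 4 conditions, with 95% counting intervals; open symbols mark pairs with under 20 reads, and CDH11 has no reads in H1299. The intervals of FN1, CDH2 and PLAU lie above 0 in all 4 conditions, while IL11 in HBE lies at −0.59 and −0.57. The points of MFAP5 and IGFN1 also lie above 0 in all 4, with intervals that hold 0 in H1299.

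The mRNA libraries were also set against cytosol. In NC, FN1 was higher in mRNA than in cytosol by a log2 fold of 3.27 (2.44 to 4.32), LIPG by 2.56, CDH2 by 1.97 and PLAU by 1.08 (4 of 9 called higher, 35.6% of all genes), while IL11 (−1.74) and UPK1B (−4.08) were lower (2 of 9, 24.2%). In knockdown 7 of 9 were called higher (36.3% of all genes), with 8.27 (7.40 to 9.46) for FN1, 4.85 for IGFN1 and 1.02 for PLAU, and none lower (25.9%). IL11 stood at 0.26 (0.16 to 0.36) in knockdown. The members were chosen for their rise between these mRNA libraries, so both counts are partly set by that choice and are descriptions.

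Levels per length put the genes in order. In HBE knockdown mRNA the order was IL11 at 168 RPKM (162 to 175), FN1 at 91.6 (89.3 to 93.9), LIPG at 17.5 (16 to 19), MFAP5 at 16.1 (14.4 to 17.9), CDH2 at 9.33, PLAU at 5.55, IGFN1 at 2.95 (2.61 to 3.33), CDH11 at 2.85 (2.25 to 3.55) and UPK1B at 2.46 (1.74 to 3.37). The neighbours LIPG and MFAP5 overlapped in their counting intervals, as did the last 3. In H1299 vector mRNA the order was another: PLAU came first at 159 RPKM, then CDH2 at 9.86, FN1 at 5.62, IL11 at 1.42, UPK1B at 1.14 and MFAP5 at 0.58. LIPG and IGFN1 had 2 reads each there, and CDH11 had 0, which allows up to 0.138 RPKM by 3 counts.

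PLAU and IL11 marked opposite lines. Set against HBE NC, the H1299 vector libraries held more PLAU by log2 folds of 5.94 (5.54 to 6.40) in mRNA, 6.67 in cytosol and 6.30 in nuclear RNA, and IL11 was lower by folds of −4.77 (−5.52 to −4.16), −5.47 and −4.61. LIPG was lower in mRNA (−5.54; 2 against 132 reads) and nuclear RNA (−5.43; 2 against 106). CDH11 had no read in the mRNA, cytosol or nuclear libraries of H1299. With H1299 set to a floor of 3 counts, it was 3.74-fold lower in mRNA and 4.74-fold lower in nuclear RNA. These values leave out the counting error of its 13 and 14 HBE reads. The log2 intervals reached −1.40 and −1.75, and with under 20 reads neither pair was called. CDH2 was higher in H1299 mRNA (2.32, 1.92 to 2.76), MFAP5 lower (−1.97, −3.17 to −1.02), and FN1 was not called (0.37, 0.13 to 0.62). In mRNA 2 of 9 were called higher and 3 lower between the lines, beside 21.2% and 22.4% of all genes. In cytosol 2 were higher and 2 lower (26.7% and 22.2%), and in nuclear RNA 2 and 4 (22.3% and 23.1%). FN1 in mRNA was at 3.61 RPKM in HBE NC and 5.62 in H1299 vector, both far below the 91.6 RPKM of HBE knockdown mRNA.

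Few of these genes differed between the H1299 vector and overexpression libraries. None of the 9 was called in mRNA (0.33% of all genes higher, 0.468% lower) or in nuclear RNA (0.407% and 0.192%), where 6 had enough reads. FN1 had 294 reads in vector mRNA and 404 in overexpression mRNA (5.62 and 5.50 RPKM; −0.01, −0.23 to 0.21). PLAU was at −0.07 (−0.14 to 0.01; 2513 and 3324 reads) and CDH2 at 0.06 (−0.17 to 0.30; 256 and 371). IL11 (20 and 32 reads; 0.20, −0.65 to 1.09) and UPK1B (14 and 32; 0.70, −0.23 to 1.74) had wide intervals. In cytosol none was called lower (1.64% of all genes) and 1 of 9 was called higher (1.04%): FN1, on 20 against 12 reads (1.34, 0.28 to 2.55). That overexpression library also held more HBE-typical RNA than its vector partner, 438 against 59.2 CPM, and whether this had a part in the FN1 fold was not tested.

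In the 4 H1299 cytosol and nuclear libraries PLAU was again the highest of the genes, at 83.5 and 79.2 RPKM in cytosol and 260 and 280 in nuclear RNA (vector, then overexpression). UPK1B had 4.51 and 3.04 RPKM in cytosol. Its 8.88 RPKM in vector nuclear RNA was above the highest HBE library (3.73). CDH2 had 1.21 and 0.99 RPKM in cytosol and 7.42 and 7.79 in nuclear RNA. MFAP5 was lower than in the HBE fractions, with 0.862 and 1.17 RPKM in cytosol and 1.71 and 2.37 in nuclear RNA. IL11 had 1.95 and 2.76 RPKM in cytosol and 2.94 and 3.20 in nuclear RNA, and FN1 3.09 and 3.57 in nuclear RNA. LIPG and IGFN1 had at most 3 reads in any H1299 mRNA, cytosol or nuclear library, so both were close to the limit of detection at this depth.

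In the RNC pair labelled HBE, 1 of the 9 genes was called higher and 2 lower; since the library labelled knockdown carries H1299-typical RNA, this does not show whether the rise is present in RNC. FN1 had 15797 reads (52.4 RPKM) in the RNC library labelled HBE NC and 5843 (24.9 RPKM) in that labelled HBE FLII knockdown, a log2 fold of −0.72 (−0.77 to −0.68). Scaled by total counts it was −1.08 and passed the rule. IL11 (440 against 1786 reads; −1.31) and LIPG (2 against 49; −3.67, −6.99 to −1.97) were lower and PLAU (2314 against 1027; 1.88, 1.78 to 1.99) higher, beside 18.9% higher and 11.7% lower of all genes. UPK1B was at 0.47 (0.14 to 0.82), not called. In the pair labelled H1299, IL11 had 153 reads in vector and 3222 in overexpression (4.14), PLAU 2876 and 252 (−3.76) and MFAP5 63 and 180 (1.26). LIPG had 0 and 54 reads, a rise of 15.1-fold with the vector library set to 3 counts. The interval of its log2 fold started at 3.57. Of the 9 genes, 3 were called higher in this pair (26.1% of all genes) and 1 lower (23%). IL11 and PLAU, which mark the lines in the other libraries, thus were at HBE-like levels of 35.2 and 2.46 RPKM in the library labelled H1299 overexpression. CDH2 was at 3.78 and 2.20 RPKM in the RNC libraries labelled HBE NC and knockdown and at 0.651 and 0.547 in those labelled H1299 vector and overexpression. UPK1B had 2.27 and 2.47 RPKM in the HBE-labelled and 0.84 and 0.643 in the H1299-labelled pair. CDH11 had 3, 4, 0 and 5 reads and IGFN1 20, 9, 6 and 7 in the RNC libraries labelled HBE NC, HBE knockdown, H1299 vector and H1299 overexpression, few for the depth of these libraries.

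Likeness to other genes was measured by Pearson's r of log2(CPM + 1) over the 12 mRNA, cytosol and nuclear libraries, among 13058 genes with at least 5 CPM in 1 of them. These libraries share lines, fractions and depth differences, so r mostly follows line and fraction, and it is a description. The HBE mRNA pair that chose the members is among the 12, so r between members is partly set by that choice. Nearest to FN1 were FAM111B (0.953), the squalene epoxidase gene SQLE (0.952) and TMEM2 (0.952), which like FN1 were low in cytosol: SQLE had 30.1 RPKM in NC mRNA, 64.5 in knockdown mRNA and 3.85 in NC cytosol. Nearest to IL11 were CLCF1 (0.990), a cytokine of the same family, EVPLL (0.987) and LFNG (0.987). CLCF1 had 18.1 RPKM in NC mRNA and 38 in knockdown mRNA. Nearest to CDH2 were NGRN (0.984), REXO2 (0.981) and the histone methyltransferase gene EZH2 (0.980). Within the set, CDH11 and IGFN1 (0.94), MFAP5 and IGFN1 (0.93) and LIPG with both CDH11 (0.93) and IGFN1 (0.93) were the closest pairs, and IL11 and PLAU the most opposed (−0.91).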

How the data were processed

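The authors deposited, for each of the 16 libraries, a table of 23709 RefSeq genes with a length, a whole-number read count and an RPKM, per the file headers. The build is GRCh37 (hg19) per the submitters' processing notes. Aligner, counter and strand use: not given in the sources used here. The deposited RPKM equals the count scaled to the length and library total; this was checked for every gene. Libraries were grouped by title. Counts of the 2 libraries of a pair were scaled with TMM (edgeR 4.0.16, R 4.3.3), 0.5 reads were added, and pairs with at least 20 reads were kept. The fold's 95% interval is exact conditional binomial; that of a difference of log2 folds comes from the inverse counts. Without molecular identifiers PCR copies count as reads, and the intervals and floors hold counting error alone. No p-value is given, since no group has a replicate. The fold calls and intervals were tested on simulated Poisson counts. Those hold counting error alone, so the test says nothing of variation between cultures or libraries. Genes typical of a line had at least 5 CPM in all 4 of its cytosol and nuclear libraries and 50 times the level of the other line (0.05 CPM added). Genes named are the 9 members, FLII, called genes of the lists (at most 4 a list and pair, by interval bound) and the 3 genes most alike to FN1, IL11 and CDH2; E-cadherin, FAP, the closest pairs and THY1 were chosen after their values were seen. The members and lists were chosen with earlier results of these data known. Alternatives tried: scaling by total counts or by DESeq2 1.42.0 size factors, at least 1 or 100 reads, 5 reads added, and deposited RPKM with 1 added. Both scalings of the lists were added after seeing the data.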

Additional observations from a re-analysis of the deposited data

Results flagged for a closer look

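UPK1B differed in direction between the lines in its spread between nucleus and cytosol. The log2 fold of nuclear over cytosol was −0.33 and −0.07 in HBE NC and knockdown and 0.64 and 0.85 in H1299 vector and overexpression, so the mean of HBE minus that of H1299 was −0.95. Both HBE pairs lay below 0 and both H1299 pairs above it. The difference was not tested, and the 2 HBE intervals hold 0.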

How the results depend on the processing

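All 9 genes were called higher in HBE mRNA under each alternative except at least 100 reads, where 7 were, and no recomputed fold changed sign against its call. With at least 100 reads, 0 genes were called in HBE cytosol and 0 in H1299 cytosol, 1 was lower in the HBE RNC pair, and the mRNA fold was above the cytosol fold for 1 gene and above the nuclear fold for 5. This filter left fewer genes to compare: IL11 alone for cytosol, and FN1, MFAP5, CDH2, IL11, LIPG and PLAU for nuclear RNA. With deposited RPKM, 0 were called in HBE cytosol (PLAU 0.66), 0 in HBE nuclear RNA (FN1 0.89), 0 in H1299 cytosol and 1 higher in the H1299 RNC pair (MFAP5 0.73), and the mRNA fold was above the cytosol fold for 2 and above the nuclear fold for 5. Here too genes were left out of the comparison, where RPKM was low in both libraries of a pair, such as FN1 in cytosol. Keeping pairs with 1 read, the mRNA fold was above the cytosol fold for 8 genes. Of 310 recomputed folds, 305 stayed on their side of the rule; FN1 in the HBE RNC pair passed it with total counts (−1.08) and RPKM (−1.05). Scaling by total counts took the HBE mRNA median over all genes from 0.01 to 0.14 and the calls from 255 higher and 370 lower to 376 and 273; with at least 100 reads these were 107 and 199, and in cytosol 1 and 8 and in nuclear RNA 5 and 9. With total counts, chosen for the lists after seeing the data, the plasminogen system held 1 lower gene, the IL-6 family 2 higher, the other mesenchymal genes 1 lower and the fibroblast markers 1 higher. Cytosol reads of FN1, CDH2, CDH11, LIPG and IGFN1 in HBE were 14 or fewer per library, which limits what their folds can show. No paired analysis was possible because each group has 1 library.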

Other observations

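THY1, a surface glycoprotein of fibroblasts and neurons, had 77 reads in the RNC library labelled HBE NC, 20 in that labelled HBE FLII knockdown, 7 and 9 in the RNC libraries labelled H1299 vector and overexpression, and 0 in all 12 other libraries. The RNC library labelled HBE NC also had the highest COL1A1 (2160 reads) and COL5A1 (2983 reads) counts and 14888 reads of VIM (435 CPM). RNC libraries are the deepest. That library also held 1587 CPM of the genes typical of H1299, against 85.7 CPM in HBE NC mRNA, and VIM was at 6300 CPM in H1299 vector mRNA, so its VIM value cannot be read as a level of HBE cells; the part of H1299 RNA in it was not tested. The mRNA, cytosol and nuclear libraries of HBE NC had 5.92, 3.04 and 2.05 CPM of VIM. FN1 in that RNC library stood at 52.4 RPKM against 3.61 in NC mRNA. These genes were chosen after their values were seen.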
